A study of Rattus norvegicus with 14 samples.

Results

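Desmosomes and tight junctions join epithelial and mesothelial cells, and 10 of their genes were followed in rat peritoneal mesotheliomas: Pkp1, Pkp2, Dsp, Dsg2, Dsc2, Jup, Epcam, Cldn1, Cldn3 and Cldn4. The genes were taken as a named list, and all 10 have a probe set of their own on the array, among 14217 genes that do. Where several probe sets matched a gene, the brightest on average over the 14 arrays was used. RNA came from male Wistar rats, with 1 Affymetrix array for each of 11 tumors and for each of 3 pieces of control peritoneum. Every tumor arose after 1 peritoneal injection of fibers in artificial lung medium, either of the multiwalled carbon nanotubes MWCNT B (2 cases), C (3) or D (3) or of amosite asbestos (3). By the labelled histology 5 tumors were sarcomatoid (spindle shaped), 3 were epithelioid and 3 were biphasic (both components). The control rats are sham-treated in the sample labels and untreated in the study's methods, and the age of the animals is not given in the labels. Values are log2(signal + 1) of the deposited intensities, so that a step of 1 is a doubling, and the number of arrays limits their precision.

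Desmosomes are spot junctions in which 2 kinds of transmembrane cadherin, the desmogleins and the desmocollins, bind neighbouring cells. Inside the cell plakoglobin (Jup) and the plakophilins tie these cadherins to desmoplakin (Dsp), which holds the keratin filaments. Tight junctions seal the space between cells, and claudins are the membrane proteins that form their strands. Epcam is an epithelial membrane protein that binds claudins and is used as an epithelial marker. Mesothelial cells carry both junctions.

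Promoter sequence was read because the Snai and Zeb repressors bind the E-box CAGGTG in epithelial promoters. Shown are 4 members whose mean among the tumor types was lowest in sarcomatoid tumors (Epcam, Jup, Cldn3 and Dsp). Dsg2 has a promoter and also had its lowest mean there (8.51, against 11.15 in biphasic and 10.95 in epithelioid tumors), but is not shown. RefSeq (build GRCr8) gave promoters of 8 members, and none was given for Pkp2 and Cldn4. The 250 bases before the start that the promoter table uses follow, 5′ to 3′ on the gene's strand (for Jup and Dsp this window lies inside the full extent RefSeq lists for the gene), with the E-box in capitals on either strand: Epcam at chr6:12649679-12649928 (minus strand), Jup at chr10:85827430-85827679 (minus), Cldn3 at chr12:27346548-27346797 (minus) and Dsp at chr17:26877122-26877371 (minus).
Epcam: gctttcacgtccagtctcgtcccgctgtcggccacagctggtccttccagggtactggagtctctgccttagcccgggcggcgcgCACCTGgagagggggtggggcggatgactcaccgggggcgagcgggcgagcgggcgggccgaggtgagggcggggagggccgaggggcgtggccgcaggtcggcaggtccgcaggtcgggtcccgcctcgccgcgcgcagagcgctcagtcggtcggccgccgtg
Jup: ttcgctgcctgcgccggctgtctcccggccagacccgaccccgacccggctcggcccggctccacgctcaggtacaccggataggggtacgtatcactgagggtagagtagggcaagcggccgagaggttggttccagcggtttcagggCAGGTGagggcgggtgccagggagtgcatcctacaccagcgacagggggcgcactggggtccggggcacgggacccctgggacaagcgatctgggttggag
Cldn3: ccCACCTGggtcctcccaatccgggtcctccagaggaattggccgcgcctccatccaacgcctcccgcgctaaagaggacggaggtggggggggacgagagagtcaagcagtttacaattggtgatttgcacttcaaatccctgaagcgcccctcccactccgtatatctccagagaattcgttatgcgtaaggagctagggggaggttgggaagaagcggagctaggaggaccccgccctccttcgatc
Dsp: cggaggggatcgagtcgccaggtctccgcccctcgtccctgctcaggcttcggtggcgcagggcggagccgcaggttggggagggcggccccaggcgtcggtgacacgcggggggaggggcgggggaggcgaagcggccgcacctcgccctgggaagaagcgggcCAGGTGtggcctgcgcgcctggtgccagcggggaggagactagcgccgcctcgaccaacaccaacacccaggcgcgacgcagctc
In the full windows of 300 bases (250 before and 50 after the start), CAGGTG or its reverse complement lay in 6 of the 8 promoters (Dsp, Dsg2, Dsc2, Jup, Epcam and Cldn3) and in 18.8% of all 33469 promoters. The GC box GGGCGG lay in 8 of 8, against 33.1% of all promoters. The grainyhead run AACCNGTT (2.1% of all promoters) and the TEAD run GGAATG (14.2%) lay in 0 of 8, and the AP-1 run TGANTCA (7.33%) lay in 1 of 8, that of Epcam. Dsc2 carries the E-box too, but its mean was not lowest in sarcomatoid tumors (7.89, against 7.83 in biphasic and 8.37 in epithelioid tumors). Base composition was not matched between the members and all promoters. A match of letters is a description of the window, and binding of a repressor was not tested.

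The tissues were checked against marker genes. The 23 measured skeletal muscle genes had a summed signal between 2.25e+06 and 2.35e+06 on the control arrays and between 1770 and 3470 on the tumor arrays. The 7 measured mesothelial genes summed to 462 to 802 in controls, 1010 to 8840 in sarcomatoid, 17700 to 25700 in biphasic and 21600 to 36000 in epithelioid tumors. The 1010 is MWCNT D replicate 2, and the other 4 sarcomatoid tumors were at 6739 to 8844. Msln, the mesothelin gene, was at 4.98 in controls and 10.72, 13.07 and 13.06 in the sarcomatoid, biphasic and epithelioid tumors (means of log2 levels). Calb2 of the same list was at 7.38 in controls and 7.37, 7.42 and 7.6 in the same order. Of these 7 genes 5 were called higher in tumors than controls, beside 24.5% of all probe sets. The 14 pancreatic acinar genes summed to 686200 in MWCNT D replicate 2, a sarcomatoid tumor, and to 914700 in amosite replicate 1, an epithelioid tumor, against 775.4 to 2029 in the other tumors. The 9 intestinal genes summed to 662 to 1710 in sarcomatoid, 852 to 44400 in biphasic and 944 to 12900 in epithelioid tumors, and the 7 skin genes to 569 to 1090, 1430 to 19800 and 2330 to 8630. The 6 pancreatic duct genes summed to 801 to 12500, 7640 to 19300 and 9090 to 10700 in the same order, and they include Krt19, which is also among the filament genes given further on. Of 7 macrophage genes 6 were higher in tumors than controls, and their sums were 13900 to 26300, 5040 to 27600 and 4460 to 17500. A sum is led by its brightest genes, such as the intestinal Lgals4 (up to 15.07 in biphasic tumors) and the skin gene Krtdap (up to 14.16). Mean Fabp2, Cdx2 and Krt1 were 5.6, 7.26 and 4.98 in biphasic tumors, against 5.9, 7.89 and 5.05 in controls. Against controls 4 of the 9 intestinal genes were called higher in biphasic and 3 in epithelioid tumors. Of the 7 skin genes 2 and 1 were, beside 24% and 24.6% of all probe sets. In bulk tissue fewer cells of a type and less RNA per cell cannot be told apart. The part of muscle, mesothelial, pancreatic, intestinal, skin and macrophage RNA in the results was not tested.

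**Figure D1:**
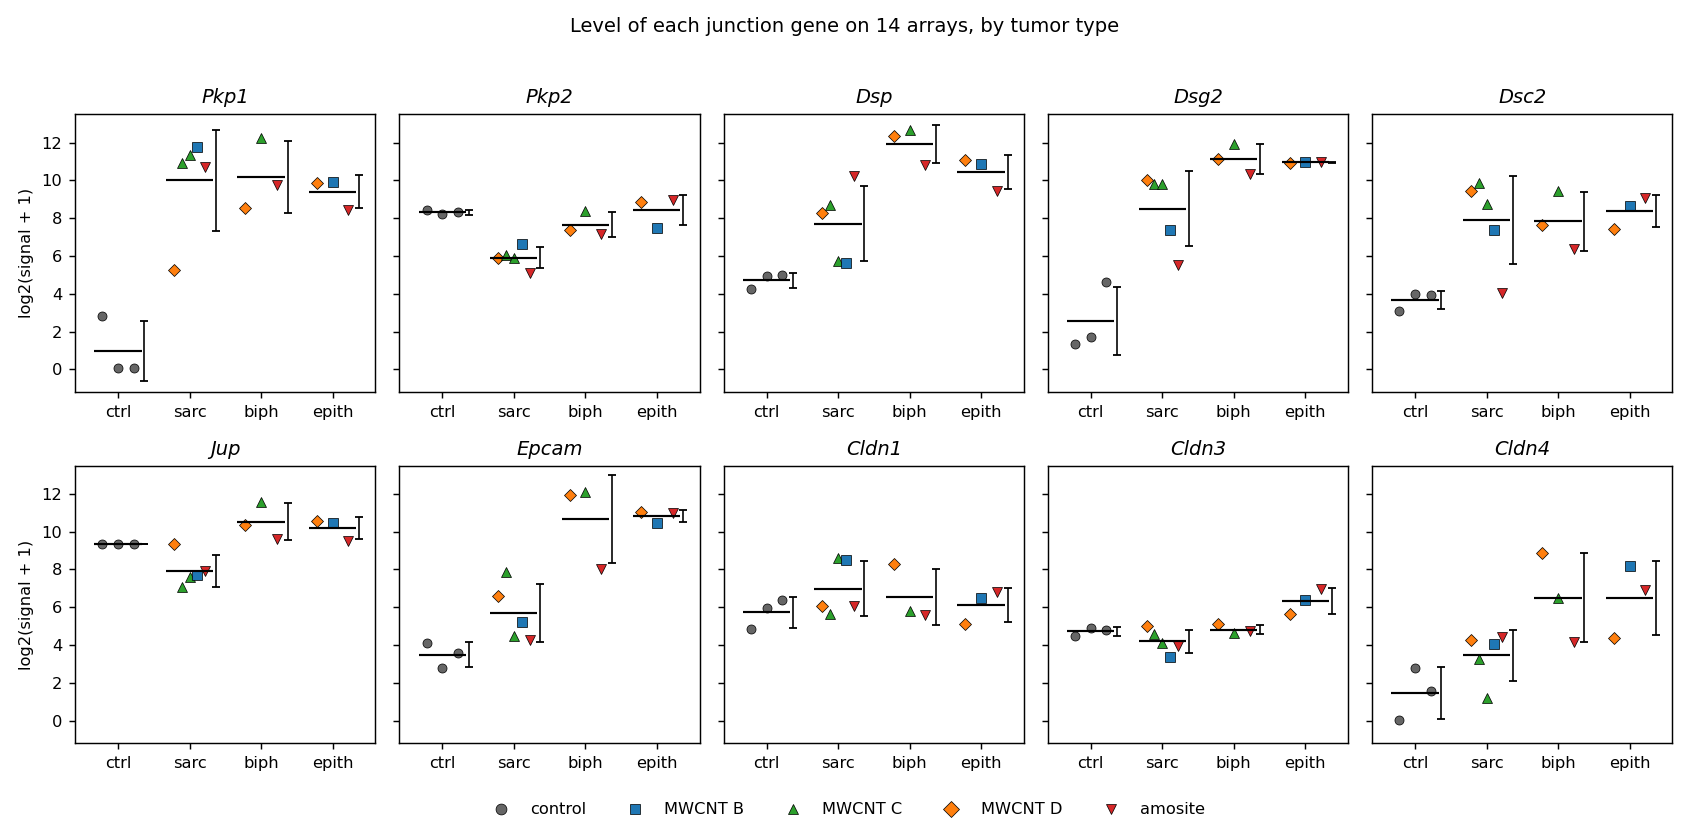
Log2(signal + 1) of the 10 junction genes on each of the 14 arrays, in controls (ctrl), sarcomatoid (sarc), biphasic (biph) and epithelioid (epith) tumors; symbols give the inducer, lines the group mean and bars 1 SD. Epcam lies between 4.29 and 7.89 in the sarcomatoid tumors and between 8.0 and 12.10 in the other tumors, while the Pkp1 and Dsc2 means lie above the controls in all 3 types.

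In the tumors against the controls, 6 of the 10 members were higher (Pkp1, Dsp, Dsg2, Dsc2, Epcam and Cldn4) and none was lower, where a call needed more than a 2-fold difference and a limma p under 0.05 after adjustment over all probe sets. Over all 31042 probe sets 34.9% were called, 24.5% in the higher direction. The median difference of the members was 3.99 on the log2 scale, and that of all probe sets was 0.34. Signals of the controls near 0 make the size of a rise depend on how low values are treated, so that the sizes of called members against controls are also given with every value below a log2 signal of 5 set to 5 (the floor).

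Pkp1 encodes a plaque protein of the desmosome. Its level was 2.82, 0.08 and 0.07 in the controls while tumors ran from 5.27 to 12.26 (median 9.91). No tumor overlapped the controls. The difference was 8.90 ± 1.15 (SE) on the log2 scale with an adjusted p of 1.78e-05, and 4.89 with the floor. The exact permutation test, two-sided, gave p = 0.00275, the smallest that 11 against 3 samples allow. The lowest tumor was MWCNT D replicate 2 at 5.27.

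The desmosomal cadherins rose as well. Dsg2 stood at 1.32, 1.71 and 4.61 in the controls, and the tumors spanned 5.55 to 11.94 (median 10.35), a difference of 7.35 ± 1.11 with an adjusted p of 7.49e-05. With the floor the Dsg2 difference was 4.89. Dsc2 stood at 3.11, 3.98 and 3.94 in the controls, and the tumors spanned 4.06 to 9.85 (median 8.65), a difference of 4.33 ± 0.94 with an adjusted p of 0.00139. With the floor the Dsc2 difference was 3.09. Both genes were separated from the controls in all 11 tumors, although the lowest Dsc2 tumor, amosite replicate 3 at 4.06, lay just above them.

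Desmoplakin gave opposite readings from its pair of probe sets. The probe set used was 4.26, 4.93 and 4.98 in the controls, and the tumors spanned 5.63 to 12.65 (median 10.23), higher by 4.89 ± 1.30 with an adjusted p of 0.00552, and by 4.62 with the floor. The other Dsp probe set was 7.82, 7.82 and 7.97 in the controls, and the tumors spanned 6.08 to 6.79, lower by 1.49 on the log2 scale with an adjusted p of 3.96e-06. The tumors did not overlap the controls in either reading, and the statement that Dsp rose holds for the probe set used. Which transcript end or isoform each probe set reads was not tested.

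Jup and Pkp2 did not pass the test. Jup was 9.33, 9.34 and 9.35 in the controls, and the tumors spanned 7.09 to 11.56, on both sides of the controls, with a difference of -0.08 (95% interval -1.82 to 1.66). Pkp2 was 8.46, 8.20 and 8.31 in the controls, and the tumors spanned 5.09 to 8.95, with a difference of -1.25 and an adjusted p of 0.154. Both genes had their lowest mean in the sarcomatoid tumors, as given further on.

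Epcam and the claudins were mixed. Epcam was 4.11, 2.78 and 3.57 in the controls, and the tumors spanned 4.29 to 12.10 (median 8.0), higher by 4.97 ± 1.66 with an adjusted p of 0.0201. With the floor the Epcam difference was 3.56 and its adjusted p 0.093. Cldn4 was 0.04, 2.76 and 1.57 in the controls, and the tumors spanned 1.19 to 8.88, higher by 3.66 ± 1.29 with an adjusted p of 0.0262, but by 0.95 with the floor and an adjusted p of 0.40. The Cldn4 groups overlapped through the sarcomatoid tumor MWCNT C replicate 2 at 1.19. Cldn3 was 4.46, 4.90 and 4.81 in the controls, and the tumors spanned 3.39 to 6.96, and its difference of 0.23 did not pass. Cldn1 did not pass with the probe set used (0.90, adjusted p = 0.306) or with a second one (1.13, adjusted p = 0.401), and it was called with the third (2.25, adjusted p = 0.0424).

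**Figure D2:**
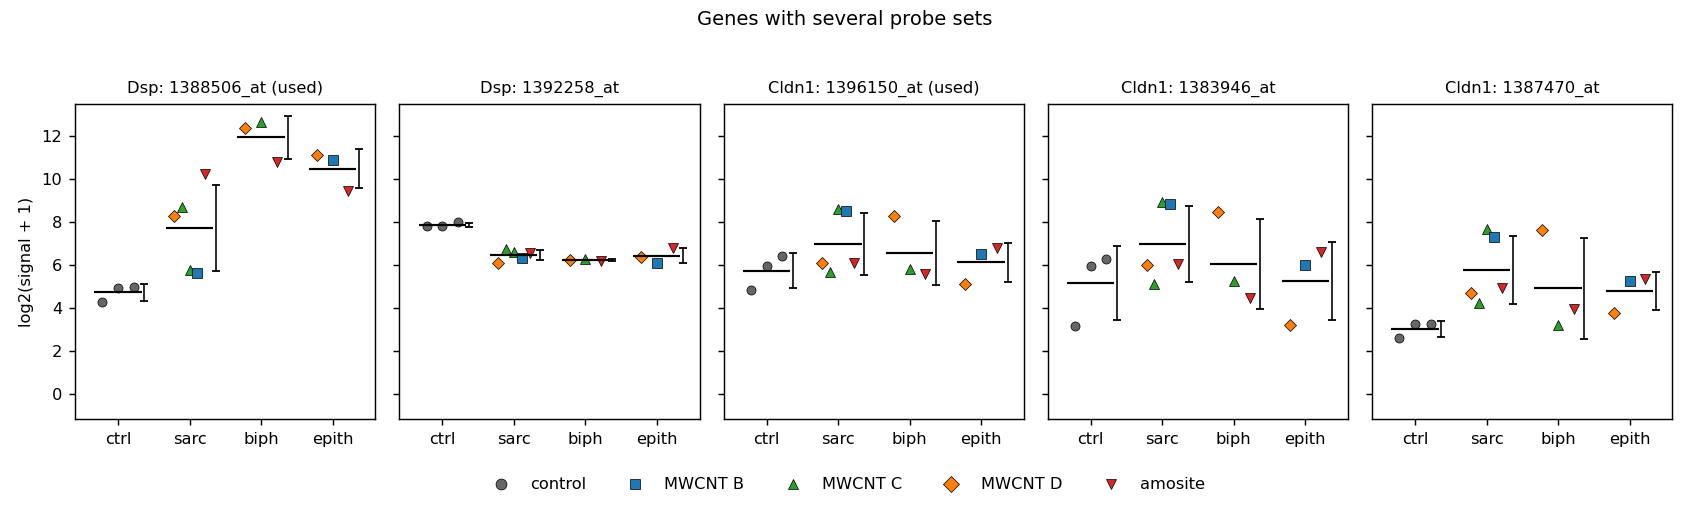
Log2(signal + 1) on 14 arrays for each probe set of Dsp and Cldn1, by tumor type, with the mean and 1 SD. The Dsp probe set that was used is higher in every tumor than in the controls, and the other Dsp probe set is lower in every tumor, while all 3 Cldn1 probe sets are highest in MWCNT C replicate 2, MWCNT B replicate 2 and MWCNT D replicate 3.

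The types were compared with the same 3 controls, so these comparisons share them. Sarcomatoid tumors had 6 members called, 4 higher and 2 lower (34.2% of probe sets called, 23.3% higher, 10.9% lower). Biphasic tumors had 6 called, all higher (34.2% of probe sets called, 24% higher). Epithelioid tumors had 7 called, all higher (34.2% of probe sets called, 24.6% higher). Pkp1, Dsp (by the probe set used), Dsg2 and Dsc2 were called higher in all 3 types.

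None of the differences between types passed for these 4 desmosomal genes, Pkp1, Dsp, Dsg2 and Dsc2. The other desmosomal members, Pkp2 and Jup, are given further on. Dsp was higher by 2.99 ± 0.93 in sarcomatoid, 7.21 ± 1.04 in biphasic and 5.74 ± 1.04 in epithelioid tumors. Dsg2 was higher by 5.96 ± 1.02, 8.60 ± 1.14 and 8.40 ± 1.14 in the same order. Dsc2 was higher by 4.22 ± 1.12, 4.15 ± 1.25 and 4.70 ± 1.25. The 95% intervals of the 3 types overlapped for all 4 genes, but they share controls and do not measure differences between types. Sarcomatoid against biphasic tumors differed by -4.22 for Dsp, -2.64 for Dsg2, -0.17 for Pkp1 and 0.06 for Dsc2, none of them called. Dsp was 5.63 to 10.23 in sarcomatoid and 10.8 to 12.65 in biphasic tumors. With the floor the Dsp differences from controls were 2.71, 6.93 and 5.47 in sarcomatoid, biphasic and epithelioid tumors. Those of Dsg2 were 3.51, 6.15 and 5.95. Dsc2 was then higher by 3.08, 2.83 and 3.37, and the biphasic call was lost (adjusted p = 0.074). Pkp1 was then higher by 5.01, 5.17 and 4.40.

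Epcam and Cldn4 were called in the biphasic and epithelioid comparisons. Epcam was higher by 7.20 ± 1.08 in biphasic (adjusted p = 0.000211) and 7.34 ± 1.08 in epithelioid tumors (adjusted p = 0.000193), against 2.20 ± 0.97 (adjusted p = 0.0754) in sarcomatoid tumors. With the floor the Epcam differences were 5.68, 5.82 and 0.94 in the same order. Cldn4 was higher by 5.06 ± 1.27 and 5.04 ± 1.27, against 1.99 ± 1.14 (adjusted p = 0.164). With the floor the Cldn4 differences were 1.79 (adjusted p = 0.14) and 1.71 (adjusted p = 0.16), and neither was called. Cldn3 was called in the epithelioid comparison, higher by 1.61 ± 0.40 with an adjusted p of 0.00549 (1.33 with the floor), and not in the other 2.

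Pkp2 and Jup were the members called lower than in the controls in the sarcomatoid tumors. Pkp2, the plakophilin also known from the heart, was 6.03 and 5.90 in the MWCNT C tumors, 5.90 in the MWCNT D tumor, 6.64 in the MWCNT B tumor and 5.09 in the amosite tumor, all below the lowest control at 8.20. It fell by 2.41 ± 0.40 on the log2 scale with an adjusted p of 0.000356. Jup fell by 1.41 ± 0.50 with an adjusted p of 0.0327, with 1 sarcomatoid tumor (MWCNT D replicate 2, 9.36) level with the controls. The Jup call was lost in 9 of 19 alternatives, among them the removal of any 1 control. The same controls carry the muscle signal given above, whose part in these falls was not tested.

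**Figure D3:**
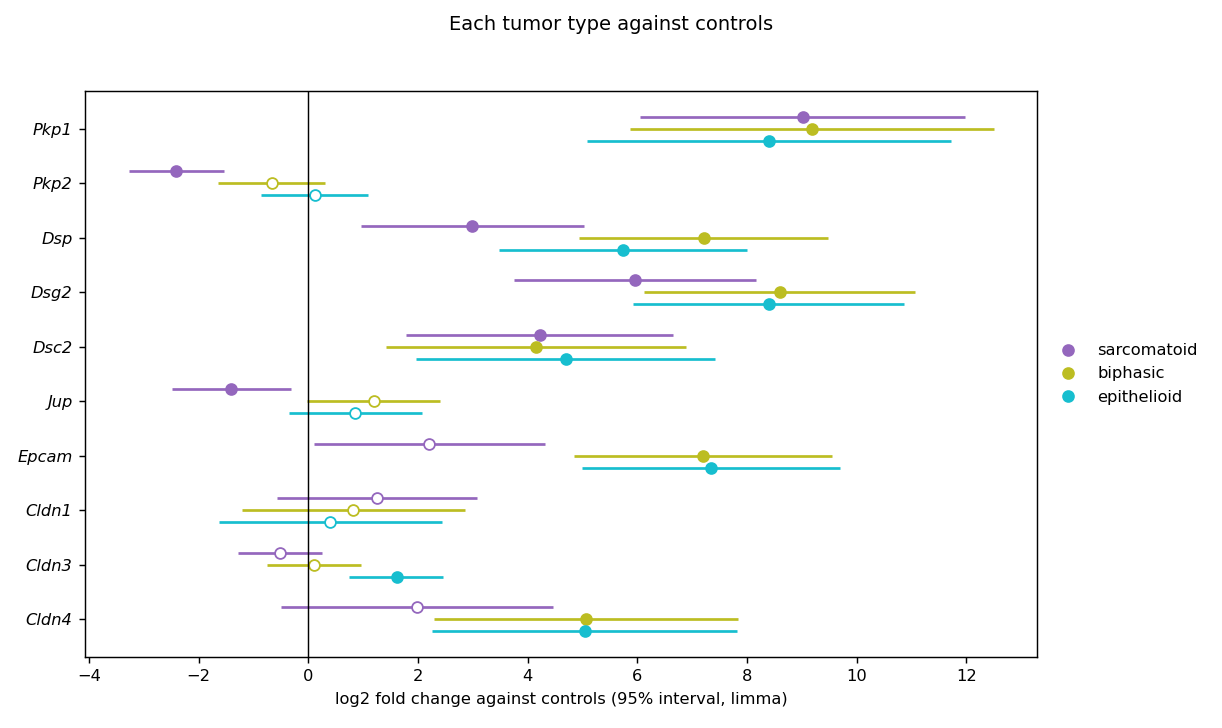
Log2 fold change of each junction gene in sarcomatoid, biphasic and epithelioid tumors against the 3 controls; lines are 95% intervals from limma, and filled points passed the call. Pkp2 (-2.41) and Jup (-1.41) are the members below 0 that were called, both in sarcomatoid tumors.

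Of the 10 members 3 were called in sarcomatoid against epithelioid tumors, all lower in the sarcomatoid tumors (Epcam, Pkp2 and Cldn3). Over all probe sets 0.76% were called, and 0.689% were lower. The median difference of the 10 members was -2.35, and that of all probe sets was -0.03. These calls depend on the fit: 0 members were called when the inducer was a covariate, when only the groups compared were fitted, without moderation, or without amosite replicate 1, which is the epithelioid tumor with pancreatic genes. Without MWCNT D replicate 1 or MWCNT C replicate 2 the count was 1. The differences themselves stayed at -5.68 to -4.78 for Epcam, -3.00 to -2.27 for Pkp2 and -2.47 to -1.81 for Cldn3 when any 1 array of these types was left out. Over all alternatives they ran from -5.68 to -3.48, from -3.00 to -2.14 and from -2.47 to -1.33 in the same order.

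Epcam was 6.58, 7.89, 4.47, 5.22 and 4.29 in the sarcomatoid tumors of MWCNT D, MWCNT C (replicates 1 and 2), MWCNT B and amosite. It was 11.06, 10.44 and 10.97 in the epithelioid tumors of MWCNT D, MWCNT B and amosite. The groups did not overlap, with a difference of -5.13 (95% interval -7.24 to -3.03) and an adjusted p of 0.0351. The exact permutation test gave p = 0.0179, the smallest that 5 against 3 samples allow. Pkp2 was 5.09 to 6.64 in the sarcomatoid and 8.86, 7.50 and 8.95 in the epithelioid tumors, lower by 2.53 ± 0.40 with an adjusted p of 0.0194. Cldn3 was 3.39 to 5.0 and 5.62, 6.4 and 6.96, lower by 2.12 ± 0.35 with an adjusted p of 0.0233. The sarcomatoid Cldn3 values lay on both sides of the controls, and the epithelioid ones above them.

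Jup had a like difference without passing the test. It was 9.36, 7.09, 7.58, 7.73 and 7.90 in the sarcomatoid and 10.59, 10.45 and 9.53 in the epithelioid tumors, with a difference of -2.26 (95% interval -3.34 to -1.17) and an adjusted p of 0.0633. Dsp, Dsg2 and Cldn4 had differences of -2.75, -2.44 and -3.04, with adjusted p of 0.223, 0.329 and 0.274. Pkp1 and Dsc2 had differences of 0.60 (95% interval -2.36 to 3.57) and -0.48 (95% interval -2.92 to 1.96), intervals that hold large differences in both directions.

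Sarcomatoid against biphasic tumors gave 0 members called by limma (0.248% of probe sets called, 0.235% lower), and 6 of 10 had an unadjusted p under 0.05. The share of all probe sets under that unadjusted limit was not counted, here or for the like counts below. Such counts therefore cannot be set against the whole array. Epcam was 11.95, 12.10 and 8.0 in the biphasic tumors of MWCNT D, MWCNT C and amosite, a difference of -4.99 with an adjusted p of 0.0641. Jup was 10.38, 11.56 and 9.63, a difference of -2.59 with an adjusted p of 0.0636. Biphasic against epithelioid tumors gave 0 members called, with 1 at an unadjusted p under 0.05, and 0% of probe sets called. The Epcam difference there was -0.14 (95% interval -2.49 to 2.21). When biphasic and epithelioid tumors were pooled, a grouping chosen after seeing the data, Epcam (-5.06), Jup (-2.43) and Pkp2 (-2.14) were called lower in sarcomatoid tumors (1.11% of probe sets called, 1.04% lower).

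**Figure D4:**
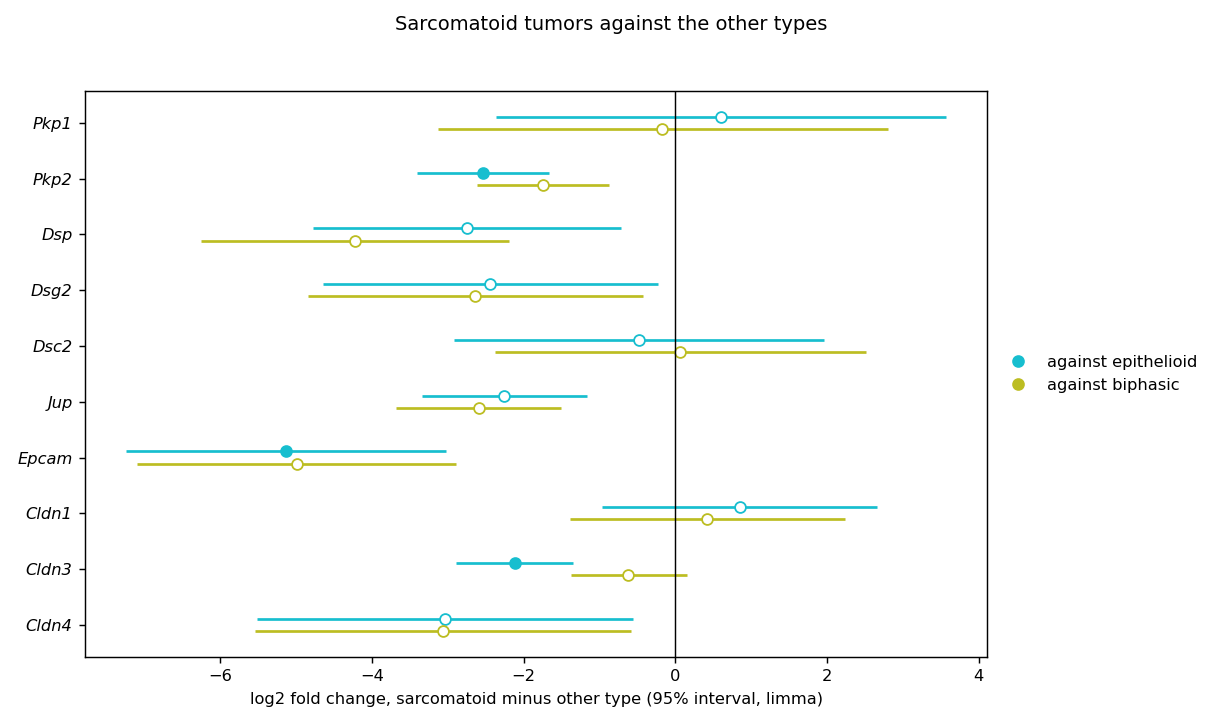
Log2 fold change of each junction gene in sarcomatoid tumors against epithelioid and against biphasic tumors; lines are 95% intervals from limma, and filled points were called. The Epcam values are -5.13 and -4.99.

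MWCNT B tumors had 3 members called higher (Pkp1, Dsg2, Dsc2), with 30.1% of probe sets called and 20.8% higher. MWCNT C tumors had the same 3 genes called higher, with 32.1% of probe sets called and 21.9% higher. MWCNT D tumors had 6 called higher, adding Dsp, Epcam and Cldn4 (32.6% of probe sets called, 22.4% higher). Amosite tumors had 4 called higher, Pkp1, Dsg2, Dsc2 and Dsp (31.8% of probe sets called, 22.3% higher). The groups share controls and hold different shares of tumor types. MWCNT C has no epithelioid tumor, and MWCNT B has no biphasic tumor.

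No member passed in the comparisons run between inducers, which did not set each inducer against each other one. MWCNT against amosite gave 0 members called by limma, with 1 at an unadjusted p under 0.05, and 0% of probe sets called. Dsc2 had the largest difference there, 2.07 (95% interval 0.26 to 3.88, adjusted p = 0.941). It was 0.85 without amosite replicate 3 and 3.35 without amosite replicate 1. MWCNT B and C against MWCNT D gave 0 members called, with 1 at an unadjusted p under 0.05 (0.0129% of probe sets called). Pkp1 was that gene, at 9.91 to 12.26 in the MWCNT B and C tumors and 9.89, 5.27 and 8.52 in the MWCNT D tumors, a difference of 3.35 with an adjusted p of 0.487. The exact permutation test gave p = 0.0179, two-sided. The difference was 2.04 without MWCNT D replicate 2, the tumor at 5.27.

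Members varied together across the tumors in part. Over 45 pairs and 11 tumors, 29 had a Pearson r above 0, and 7 passed an adjusted p of 0.05 by permutation for both Pearson's r and Spearman's rho, all positive. Epcam was in 4 of these pairs, with Pkp2 (r = 0.86, rho = 0.85), Jup (r = 0.84, rho = 0.82), Dsg2 (r = 0.81, rho = 0.93) and Dsp (r = 0.77, rho = 0.81). Permutation p adjusted over the 45 pairs were 0.031, 0.041, 0.0058 and 0.045 for r, and 0.026, 0.032, 0.0049 and 0.032 for rho. Without the 2 tumors farthest from the median of the first gene, r was 0.82, 0.92, 0.90 and 0.62. After the mean of each tumor type was removed, r was 0.44, 0.34, 0.57 and 0.35, lower in each pair than the r over all tumors. Pkp1, Dsc2, Cldn1, Cldn3 and Cldn4 had no pair that passed both, and the Dsg2 and Dsc2 pair had r = 0.69 and rho = 0.34. The r of Pkp1 over 11 tumors was -0.12 with Epcam, -0.2 with Jup and -0.08 with Dsp. Without the 2 tumors farthest from the Pkp1 median it was -0.84, -0.77 and -0.76. With Dsc2 and Cldn1 it was then -0.09 and 0.18, and no p was computed without these tumors.

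**Figure D5:**
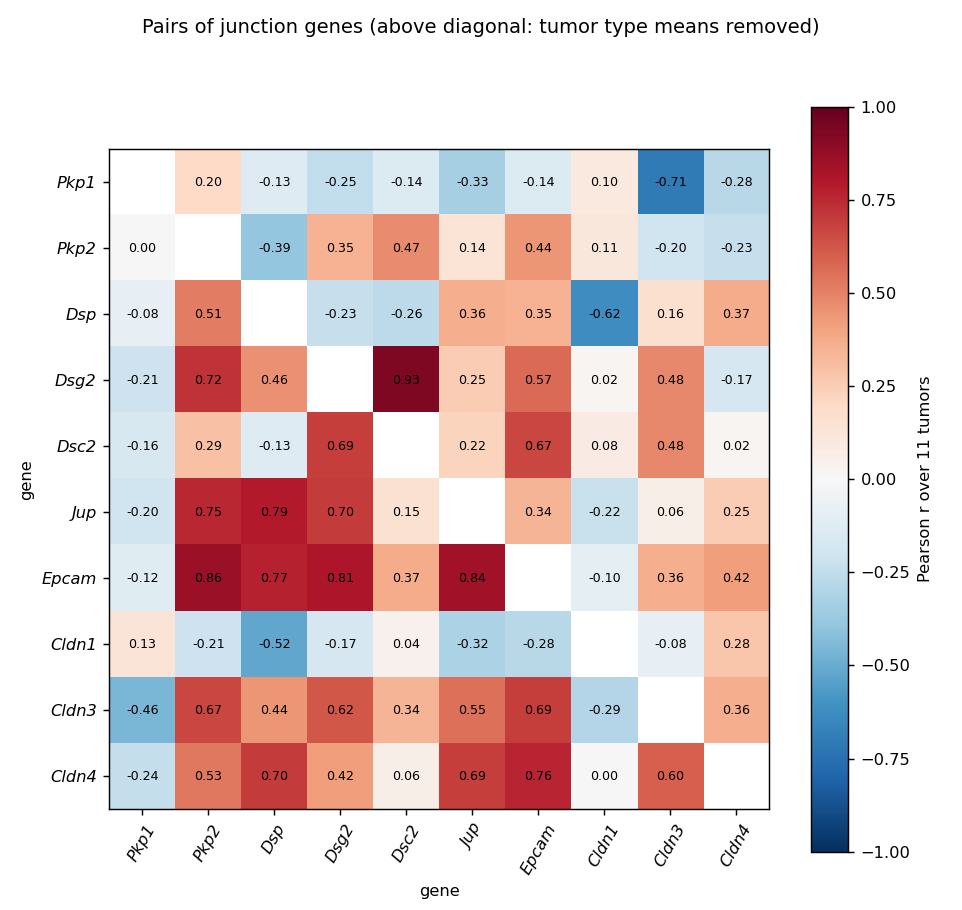
Pearson r over 11 tumors for the 45 pairs of junction genes (below the diagonal) and after removal of the tumor type means (above the diagonal). The highest r below the diagonal is that of Pkp2 and Epcam (0.86), and no pair with Pkp1 or Cldn1 has an r above 0.13 there.

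The gene most like each member was sought among 11389 other genes with a mean log2 signal of at least 6 in the tumors. Epcam was most like Lsr, which encodes a receptor of tricellular junctions (r = 0.95, rho = 0.94, over 11 tumors). Jup was most like Nherf2 (r = 0.95), Pkp2 most like Large2 (r = 0.94), Dsp most like Aldh2 (r = 0.93) and Pkp1 most like Dip2c (r = 0.96). The others were Kiaa1671 for Dsg2 (r = 0.93), Snrk for Dsc2 (r = 0.93), Camk2g for Cldn1 (r = 0.93), Osbpl6 for Cldn3 (r = 0.91) and Harbi1 for Cldn4 (r = 0.93). The best of so many genes over 11 tumors is high by selection, and no p is given.

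Other junction genes were counted beside the 24.5% of all probe sets that were higher in tumors, and again with the floor. Of 8 other desmosomal genes 4 were higher, and 1 with the floor. Evpl (envoplakin) was higher by 6.53 and by 3.47 with the floor, and Perp by 6.10, which was not called with the floor (2.34, adjusted p = 0.091). Of 13 other claudins 2 were higher, Cldn10 (3.71) and Cldn7 (2.93), from controls at 0.01 to 2.7 and at 1.06 to 3.31. With the floor 0 of these claudins were called by limma (0.44 and 0.79). Of 21 other tight junction genes 7 were higher and 1 lower (Mpdz, -1.38), and 5 and 1 with the floor. Pard6b was higher by 2.85 with and without it, and Cxadr by 3.30 without it and 0.76 with it (adjusted p = 0.29). Of 12 adherens junction genes 8 were higher, and 5 with the floor. Cdh3 (P-cadherin) was higher by 5.25 and 4.41, and Cdh1 (E-cadherin) by 6.08, which was not called with the floor (3.87, adjusted p = 0.085). Of 8 gap junction genes 2 were higher, Gja1 (connexin 43) by 3.42 and Gjb5 by 1.23, and with the floor only Gja1 was called.

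Sarcomatoid tumors were lower than epithelioid tumors in 3 of the 21 tight junction genes, beside 0.689% of all probe sets. Cgn (cingulin, a plaque protein) was 3.33 to 5.20 in sarcomatoid and 7.02, 7.45 and 7.77 in epithelioid tumors, a difference of -3.33 with an adjusted p of 0.019. Cgnl1 (paracingulin) differed by -2.73 and Pard6b (a polarity protein) by -2.29. Nectin2 differed by -1.94 (adjusted p = 0.037). Of 10 filament genes that desmosomes anchor, Krt7, Krt14 and Krt19 were lower in sarcomatoid tumors, with differences of -5.27, -4.40 and -5.57. The replicate block and the inducer as covariate ended all 7 of these calls, and the alternatives that ended them ranged from 3 of 20 for Krt7 to 15 of 20 for Pard6b. Every epithelioid tumor is a replicate 1, and among the sarcomatoid tumors only MWCNT C replicate 1 is. The replicate block therefore overlaps with tumor type and cannot cleanly separate the 2. Against biphasic tumors, beside 0.235% of all probe sets, Cgn (-3.95), Krt7 (-5.74) and Krt14 (-5.59) were lower. Of the 10 filament genes 6 were higher in tumors than in controls, and 4 with the floor, among them Krt14 (9.52, and 4.89 with the floor) and Krt18 (8.25, and 5.08 with the floor), and Des was lower (-2.53). In the other desmosomal, claudin and gap junction lists limma called 0 genes between sarcomatoid and epithelioid tumors, with 1, 1 and 2 at an unadjusted p under 0.05.

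Regulators were counted in the same way, beside the same 24.5%. Of 5 measured repressors of epithelial junctions (Snai1, Zeb1, Zeb2, Twist1 and Twist2) 3 were higher in tumors than controls, and 2 with the floor. Twist1 was higher by 2.63 and Twist2 by 3.28, which was 0.35 with the floor (adjusted p = 0.52), and limma called 0 between sarcomatoid and epithelioid tumors, with 1 at an unadjusted p under 0.05. Of 13 measured epithelial regulators 5 were higher in tumors, and 3 with the floor, with Spint2 higher by 4.07 and St14 by 2.50, and limma called 0 between sarcomatoid and epithelioid tumors, with 5 at an unadjusted p under 0.05. These counts carry no test of the list.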

How the data were processed

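The authors hybridized total RNA to Affymetrix rat genome arrays and deposited 1 linear intensity per probe set, normalized with PLIER in the Transcriptome Analysis Console. No detection calls were used. Of 31099 probe sets, 57 controls were removed, and log2(signal + 1) of the other 31042 was analysed; 20826 carry 1 gene symbol. Groups came from the sample labels.

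All probe sets entered 1 fit per comparison family in limma 3.58.1 (R 4.3.3), with Benjamini-Hochberg adjustment over the whole array. A call needed more than a 2-fold difference and an adjusted p under 0.05. Exact permutation tests were two-sided. Pair correlations used 100000 resamples. The members and gene lists were chosen with earlier results of these data known. Other genes were named by rule: from each list the 2 largest rises and falls in tumors and those called between types, and the most similar gene for each member. The alternatives are given below (those of the other junction genes were added after seeing the data), and fits were tested on simulated data. Where labels do not say that replicates are separate animals, p-values measure only the spread between samples. Figures used matplotlib in Python.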

Additional observations from a re-analysis of the deposited data

Results flagged for a closer look

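Pkp1 in MWCNT D replicate 2 was 5.27, far below the other sarcomatoid tumors, with a gap of 0.84 of the group's range; 10 groups were examined for such gaps, and chance flags about 1 in 20. This tumor also has high pancreatic acinar genes (a sum of 686200) and the lowest mesothelial sum of the tumors (1010), and their part in the value was not tested. Sarcomatoid and epithelioid tumors differed by a test of the difference for Pkp2 (-2.53), Epcam (-5.13) and Cldn3 (-2.12), the values given above.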

How the results depend on the processing

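Counts of members called moved as follows. The share of all probe sets called under each setting is not given beside them, so a change in a count may hold for the whole array. At an adjusted p below 0.001 they were 2 for tumors, 1 each for MWCNT B, C, D and amosite, 3 for sarcomatoid, 4 for epithelioid tumors and 0 for sarcomatoid against epithelioid. Fitting only the groups compared gave 5 for MWCNT B. The floor at log2 5 gave 3 for MWCNT D. For sarcomatoid against epithelioid tumors the count was 0 without moderation, with only the groups compared, with the inducer as covariate and with the replicate number as a block. Replicate number overlaps with tumor type, since every epithelioid tumor is a replicate 1 and only MWCNT C replicate 1 is among the sarcomatoid tumors. Comparisons of types with this block, here and below, cannot cleanly separate them. For sarcomatoid against biphasic tumors it was 1 with log2(signal + 16), 1 without the pair of tumors with pancreatic enzyme genes and 3 with biphasic and epithelioid tumors pooled, an alternative chosen after seeing the data. Leaving out each array gave 4 to 6 for tumors, 1 to 4 for MWCNT B, 3 to 5 for MWCNT C, 3 to 6 for MWCNT D, 2 to 3 for amosite, 4 to 6 for sarcomatoid, 5 to 7 for biphasic, 0 to 4 for sarcomatoid against epithelioid and 0 to 2 for sarcomatoid against biphasic. The arrays whose removal moved a count by over 1.5 times were MWCNT B replicate 1 (1 for MWCNT B), MWCNT D replicate 3 and control replicate 1 (3 for MWCNT D), amosite replicate 2 and each control (2 for amosite), and amosite replicate 1 (0), MWCNT D replicate 1 (1) and MWCNT C replicate 2 (1) for sarcomatoid against epithelioid; MWCNT C replicate 2 raised the count for MWCNT C to 5, and amosite replicate 2 gave 2 and MWCNT D replicate 2, MWCNT C replicate 1 and amosite replicate 3 gave 1 for sarcomatoid against biphasic. The cause was not tested. Deviations of same-numbered samples from their inducer or control means had r from -0.29 to 0.392 over 26 pairs, 6 over 0.1. Differently numbered samples were not compared and tumor type was not removed, so this cannot decide whether the numbers pair samples. With the replicate block the counts were 6 for tumors, 4 each for MWCNT B, MWCNT C and amosite, and 6 for MWCNT D. They were 7 for sarcomatoid, 6 for biphasic and 6 for epithelioid tumors.

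The sign changed in these results. The second Dsp probe set gave -1.49 for tumors, -1.42, -1.66 and -1.45 for sarcomatoid, biphasic and epithelioid tumors against controls, and 0.04 and 0.24 for sarcomatoid against epithelioid and biphasic. Quantile normalization and median centring gave -0.16 and -0.22 for Cldn3 in tumors, -0.28 and -0.36 for Cldn3 in biphasic, -0.29 and -0.44 for Pkp2 in epithelioid, and -0.12 and -0.15 for Cldn1 in epithelioid tumors. The floor gave 0 for Cldn3 in sarcomatoid tumors against controls. Without the pancreatic pair Pkp2 in epithelioid tumors was -0.14, and in sarcomatoid against biphasic tumors Pkp1 was 1.02 and Dsc2 -0.32. With the inducer as covariate Pkp1 was -0.22 in sarcomatoid against epithelioid and Dsc2 -0.21 in sarcomatoid against biphasic tumors. Pooled, Pkp1 was 0.22 and Dsc2 -0.21. With the replicate block Pkp2 in epithelioid tumors was -0.01, and in sarcomatoid against epithelioid tumors Dsc2 was 0.2 and Cldn1 -0.37, Dsc2 was -0.46 in sarcomatoid against biphasic, and Epcam 1.41 in biphasic against epithelioid tumors. Leaving out 1 array gave -0.31 to 0.13 for Jup in tumors, -0.03 to 1.32 for Cldn1 and -0.04 to 0.19 for Cldn3 in biphasic, -0.14 to 0.59 for Pkp2 and -0.04 to 0.92 for Cldn1 in epithelioid tumors, -0.97 to 0.48 for Dsc2 in sarcomatoid against epithelioid, -0.99 to 1.02 for Pkp1, -0.65 to 1.02 for Dsc2 and -0.07 to 1.28 for Cldn1 in sarcomatoid against biphasic, and -0.85 to 1.2 for Epcam in biphasic against epithelioid tumors. Calls lost among the alternatives, beside the second Dsp probe set, were as follows. In sarcomatoid against epithelioid tumors they were those of Epcam (12 of 21), Pkp2 (8 of 21) and Cldn3 (8 of 20). Against controls they were Cldn4 (6 of 24), Epcam (4 of 25), Dsp (1 of 26) and Dsc2 (1 of 25) in tumors, Jup (9 of 19), Dsp (2 of 20) and Dsc2 (1 of 19) in sarcomatoid, Dsc2 (4 of 17) and Cldn4 (2 of 16) in biphasic, and Dsc2 (2 of 17), Cldn4 (2 of 16) and Cldn3 (1 of 16) in epithelioid tumors.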
